A study of Mus musculus with 12 samples.

Results

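Most Zfp genes encode zinc finger proteins, and 288 rows with such a symbol were followed here in mouse splenic lymphocytes, comparing resting B cells with naive CD4+ T cells. They are the rows of the expression table whose symbol is Zfp followed by a digit, with no hyphen, and they were selected on measured values, namely an adjusted TPM of 1 or more in at least 3 of the 12 libraries. Of 41128 rows in the table, 369 carry such a symbol, 288 met the rule and 81 did not. The 288 rows hold 287 distinct symbols, as a pair of rows is named Zfp319, and each row is counted as a gene below. The level in at least 3 libraries therefore describes the members and is not a result about them. Adjusted TPM is the authors' length-corrected transcript abundance after their own adjustment, and because of the length correction it allows levels of different genes to be set side by side.

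The 12 libraries form 4 groups of 3. All were made from C57BL/6J spleens at 6 to 8 weeks of age, and the labels name no transgene, deletion or treatment. Resting B cells lacking CD43 were taken from females and from males. Naive T cells carrying CD4 and CD62L were also taken from females and from males, and were enriched with magnetic beads before a sort on CD62L (high), CD44 (low) and CD25 (absent). Replicates were pooled animals, and the p-values below therefore measure variation among pools and not among single mice.

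A zinc finger is a short fold held together by a zinc ion, and in the C2H2 type a pair of cysteines and a pair of histidines hold it. Tandem C2H2 fingers bind DNA, with neighbouring bases read by successive fingers. Many of these proteins also carry a KRAB box, which recruits the corepressor TRIM28 and with it repressive histone methylation, and such proteins are best known for silencing retroelements such as the intracisternal A particles (IAPs). A smaller CCCH type, of which Zfp36 is the best known example, binds AU-rich elements in messenger RNA and hastens its decay.

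The reference coding sequences show what the members share beyond their symbol. Stretches of coding sequence from GENCODE M21 (GRCm38) are given for a pair of neighbouring genes of chromosome 17, Zfp53 and Zfp52, which differed between the cell types in opposite directions, and for Zfp36 as an example of the CCCH type. Capitals mark the codons of the zinc-binding cysteines and histidines in the first finger of each gene, read 5′ to 3′ on the coding strand. The stretches lie at chr17:21508388-21508450 (plus strand, exon 5), chr17:21560453-21560515 (plus strand, exon 5) and chr7:28378158-28378217 (minus strand, exon 2).
Zfp53: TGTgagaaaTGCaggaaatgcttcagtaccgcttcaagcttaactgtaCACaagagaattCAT
Zfp52: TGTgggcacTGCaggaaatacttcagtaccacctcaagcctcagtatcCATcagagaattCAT
Zfp36: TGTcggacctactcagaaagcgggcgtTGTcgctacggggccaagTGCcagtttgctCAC
The fingers of Zfp53 and Zfp52 differed at 13 of 63 bases, and over their aligned coding sequences the genes were 79.1% identical.

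The core of the KRAB box is shown in the same way for Zfp53, Zfp52 and Zfp870, because this stretch decided which members were counted as KRAB genes. Capitals mark the codons that the search pattern required, a phenylalanine, an aspartate with a valine, and a closing triplet that ends in glutamate and tryptophan. The stretches lie at chr17:21504993-21505031 (plus strand), chr17:21557147-21557185 (plus strand) and chr17:32886033-32886071 (minus strand).
Zfp53: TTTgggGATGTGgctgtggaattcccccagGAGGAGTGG
Zfp52: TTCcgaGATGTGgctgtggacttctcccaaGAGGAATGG
Zfp870: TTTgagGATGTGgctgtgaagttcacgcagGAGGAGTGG
Between Zfp53 and Zfp52 this stretch of 39 bases differed at 7 positions. Between Zfp53 and Zfp870, which lies in another run of Zfp genes, it differed at 5.

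Of the 288 members, 283 are annotated as protein-coding, 3 as transcribed pseudogenes and 1 as an antisense RNA, and 1 row could not be matched to the annotation. Among the 283 coding members the number of C2H2 fingers ran from 0 to 36, with a median of 10. The KRAB core was found in 94, which had a median of 12 fingers, and not in the other 189, which had a median of 9. Zfp36, Zfp36l1, Zfp36l2 and Zfp330 were the 4 members that matched the CCCH pattern, each 2 times, and they matched the C2H2 pattern 0 times. In 48 members at least 10% of the coding sequence was shared at 95% identity with another gene, so reads of these genes may have been divided between copies.

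The Zfp genes were expressed at moderate levels. Their median adjusted TPM over 12 libraries was 8.52, against 11.4 for all 12520 genes tested and 14.1 for the protein-coding ones, and 130 of the 288 reached 10. The sum over all members lay between 3442 and 3929 in every library. Libraries differed far more in their total, from 561020 to 1453940, and the most abundant row of each library, one of a pair of noncoding RNAs, took between 11.4% and 37.4% of that total. The defining markers went with the labels, as all 5 B cell markers were called higher in B cells while all 5 T cell markers were called the other way. Markers of other cell types summed to between 17.6 and 217 in B cells, against 13.9 to 57.2 in T cells, and their part in the results was not tested. Most of the highest sum, in male B cell library 1, was haemoglobin RNA, with Hbb-bs at 154 and Hba-a1 at 41.7. Both T cell libraries numbered 6 stood apart in Il2ra, which encodes CD25, with 4.11 in the male library and more in the female one, against 0.158 to 0.340 in the other T cell libraries, although the sort was on absent CD25. Foxp3, the regulator of regulatory T cells, was at 2.57 and 1.82 in them and at 0.440 to 0.735 in the others. Results that rest on this pair are given with and without it. The 4 cell cycle genes were higher in B cells, where their sum ran from 22.1 to 48.2 against 3.47 to 5.47 in T cells, and their part in the results was not tested. In bulk RNA, fewer cells that express a gene and less RNA per cell cannot be told apart.

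The highest level belonged to an RNA-binding protein. Zfp36l2 had a mean adjusted TPM of 120.6 over the 12 libraries and ranked first. It was followed by Zfp207, which acts at the mitotic spindle, Zfp36, Zfp62 and Zfp740. Zfp207 ran from 97.6 to 109 in B cells, against 78.9 to 111 in T cells, and Zfp740 from 57.5 to 62.1 and from 55.8 to 64.5, so both overlapped between the cell types. Zfp207 was not called (log2 fold change 0.18 ± 0.08 (SE), limma adjusted p = 0.060), but it was without female T cell library 6 (0.21) or male T cell library 6 (0.26). Zfp62, a protein with 25 fingers, was at 67.7 to 75.9 in B cells, against 49.0 to 56.9 in T cells, without overlap (log2 difference 0.45 ± 0.05 (SE), limma adjusted p = 7.1e-06).

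At the other end of the range stood the genes nearest the rule. The lowest members by the third highest library were Zfp647 (1.01), Zfp583 (1.03) and Zfp558 (1.03), and the nearest rows outside it were Zfp11 (0.998) and Zfp964 (0.957). Only 3 of the 81 rows outside reached 1 in any library, and the median of their highest value was 0.0662. Among these were Zfp57, which protects imprinted loci, with means of 0.00016 in B cells, against 9.4e-05 in T cells, and Zfp683 (Hobit), which acts in tissue-resident lymphocytes, with means of 0.0076 and 0.117.

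The main comparison asks which Zfp genes differ between the lymphocyte types. Fold changes are differences of mean log2(adjusted TPM + 1) between the 6 B and the 6 T cell libraries, and a gene is called where limma with Benjamini-Hochberg adjustment over all 12520 genes gave an adjusted p under 0.05. Of the 288 members 181 were called, or 62.8%, against 73% of all genes tested. In B cells 79 were higher (27.4%, against 31.4% of all genes), and in T cells 102 were higher (35.4%, against 41.6%). The difference was at least 1 on the log2 scale in 30 members, 17 in favour of B cells and 13 in favour of T cells. That is 10.4% of the members, against 21.6% of all genes (11.8% towards B cells, 9.76% towards T cells). Of the 30, 12 towards B cells and 4 towards T cells met the rule through that cell type alone, so their direction was fixed in advance. Members that met it in both cell types are counted apart below. The 6 B and 6 T cell libraries did not overlap for 124 members, or 43.1%, against 53.9% of all genes. Of these 50 were higher in B cells (24.2% of all genes were) and 74 towards T cells (29.7%). Among them, 15 of the 50 and 7 of the 74 had likewise met the rule through 1 cell type alone. The median log2 fold change of the members was -0.05, beside -0.09 for all genes. Without both T cell libraries numbered 6, 191 members were called, 96 higher in B cells (31.8% of all genes were) and 95 higher in T cells (41.9%).

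**Figure D1:**
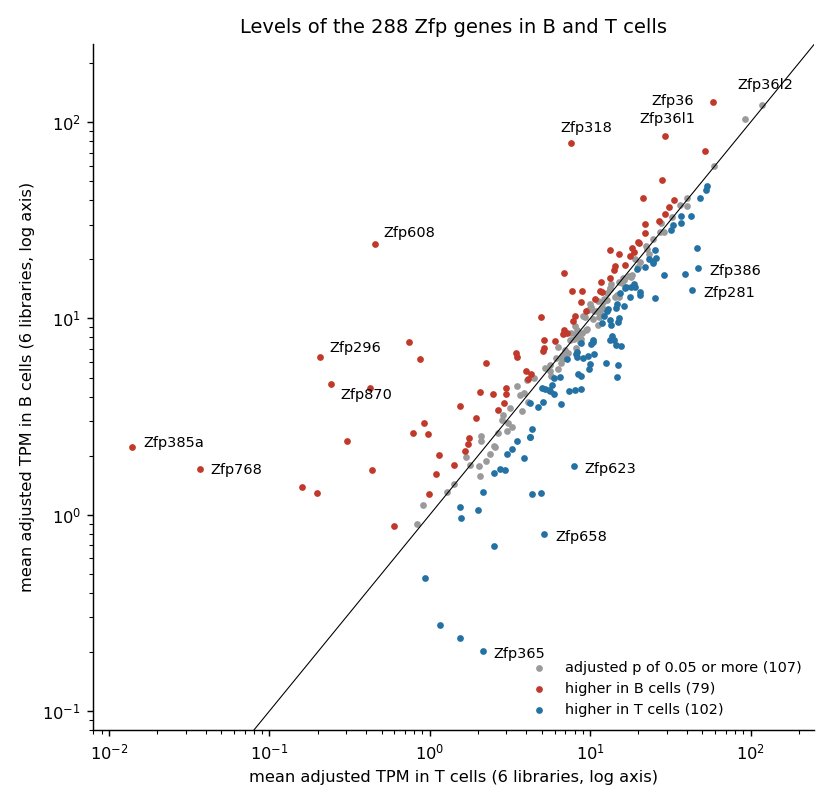
Mean adjusted TPM of each of the 288 Zfp genes in T cells (horizontal, log axis) against B cells (vertical, log axis), 6 libraries each, coloured by the limma call; the line marks equal levels. Most genes lie close to the line, while Zfp608 (23.8 in B cells, 0.453 in T cells) and Zfp318 (78.1 and 7.57) lie far above it and Zfp658 (0.800 and 5.18) and Zfp281 (13.98 and 43.2) below it.

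The balance of directions depended on how the libraries were scaled. On the deposited values 79 members were higher in B and 102 in T cells. With median-ratio scaling the counts were 107 and 74 (37.2% and 25.7%, against 37.8% and 34.4% of all genes). With every library brought to the same total they were 111 and 23 (38.5% and 7.99%, against 38.4% and 15.9% of all genes). The median log2 fold change of all genes moved with them, from -0.09 to 0.01 and 0.25. Since both other scalings shift all genes towards B cells, calls in that direction could hardly be lost, and all 79 of the members and all 3926 of all genes were kept. Of the calls towards T cells 23 of 102 members (22.5%) and 1961 of 5208 of all genes (37.7%) held under the 3 scalings. The split of small fold changes between the directions rests on the scaling.

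**Figure D2:**
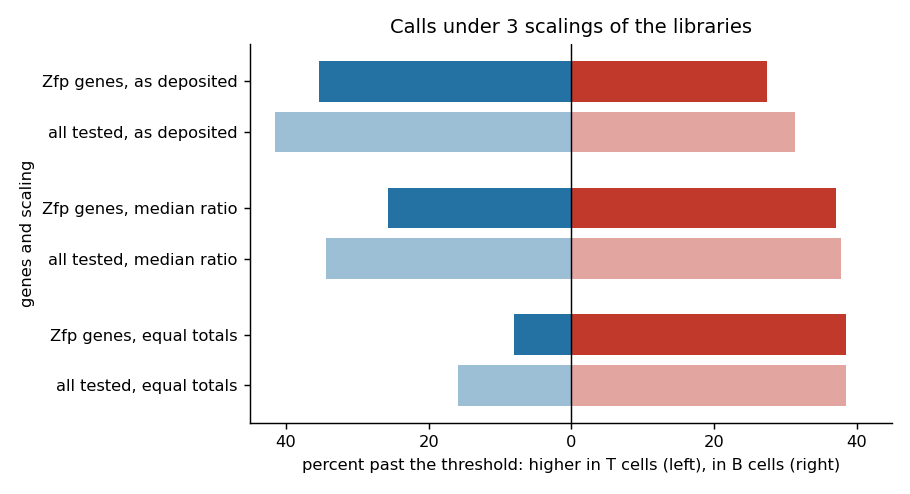
Percent of genes called higher in T cells (bars to the left) and higher in B cells (bars to the right) among the 288 Zfp genes (dark) and all 12520 genes tested (pale) under 3 scalings of the libraries. The T cell bar of the Zfp genes shrinks from 35.4% to 25.7% and 7.99% while the B cell bar grows from 27.4% to 37.2% and 38.5%. The bars of all genes move the same way, from 41.6% to 34.4% and 15.9% and from 31.4% to 37.8% and 38.4%.

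The genes furthest from equality were led by B cell genes. Zfp608, which has been described as a repressor of the Rag genes in thymocytes, had 21.7, 23.9 and 25.3 as its lowest, median and highest adjusted TPM in B cells, against 0.271, 0.462 and 0.587 in T cells. No T cell library reached 1, and the lowest B cell library was far above the highest T cell library. Zfp318, which is needed for the long transcript that encodes IgD on mature B cells (chr17:46383731-46420920, plus strand), had 74.7, 77.3 and 83.6 in B cells, against 6.22, 7.40 and 8.72 in T cells. It was therefore detected in naive T cells too, far below the B cell level (log2 fold change 3.21 ± 0.07 (SE), adjusted p = 1.6e-13). Zfp318 and Zfp36l1 were the only genes among the 10 largest increases in B cells that reached 1 in at least 3 T cell libraries.

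The other 8 passed the rule through B cells alone, so that they had to be higher there, and they are described by their levels. Zfp296, a heterochromatin protein of embryonic stem cells (chr7:19577287-19580656), had a median of 6.42 in B cells, against 0.202 in T cells. Zfp821 had medians of 7.51 and 0.721, Zfp839 of 6.28 and 0.919, and Zfp516, a regulator of brown fat genes, of 4.48 and 0.364. Zfp870, the KRAB gene whose box is shown above, had 4.41 and 0.209. Zfp385a and Zfp768 stood near 2 in B cells, with medians of 2.20 and 1.72, and near 0 in T cells, with 0.0137 and 0.0307. In all, 18 of the 288 members reached 1 in fewer than 3 T cell libraries and 8 in fewer than 3 B cell libraries, with Zfp647 counted in both. Of the 263 members with that level in both cell types, 157 were called (59.7%, against 73% of all genes). Of these 62 were towards B cells (23.6%, against 31.4%) and 95 towards T cells (36.1%, against 41.6%). A difference of at least 1 on the log2 scale was found in 5 and 9 of them, against 11.8% and 9.76% of all genes. The shares of all genes include genes that passed the rule through a single cell type.

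Among T cell genes the largest difference belonged to Zfp658, a KRAB gene with 21 fingers (chr7:43562256-43575461, plus strand), with a median of 0.795 in B cells, against 5.36 in T cells. It passed the rule through T cells alone, as did Zfp365, which acts at the centrosome and in the response to DNA damage and had medians of 0.176 and 2.19. Zfp623 ran from 1.53 to 2.12 in B cells, against 7.43 to 8.36 in T cells (log2 difference -1.68 ± 0.06 (SE), adjusted p = 3.9e-11). Zfp281, a regulator of the exit from pluripotency (chr1:136624901-136630053, plus strand), had 12.5, 14.2 and 15.4 in B cells, against 39.6, 40.9 and 50.7 in T cells. Its lowest T cell library was thus well above the highest B cell library (log2 fold change -1.56 ± 0.08 (SE), adjusted p = 1.3e-09).

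Zfp386 had the highest T cell level of this group, with a median of 47.1 against 17.9 in B cells. Zfp287 ran from 4.61 to 5.59 and from 13.3 to 16.1. Zfp931 had medians of 6.10 and 14.4, with 34.5% of its coding sequence shared with other genes. Zfp467 had medians of 1.29 and 4.33. Zfp708, a repressor of a retroelement family, had 1.21 and 4.94, and the whole of its coding sequence is shared with an overlapping gene model, so its level is uncertain. These 10 were taken from called genes whose cell types did not overlap, and all 10 were called higher in T cells under each of the 3 scalings. Since they were picked for the largest differences, their calls could hardly be lost by rescaling.

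**Figure D3:**
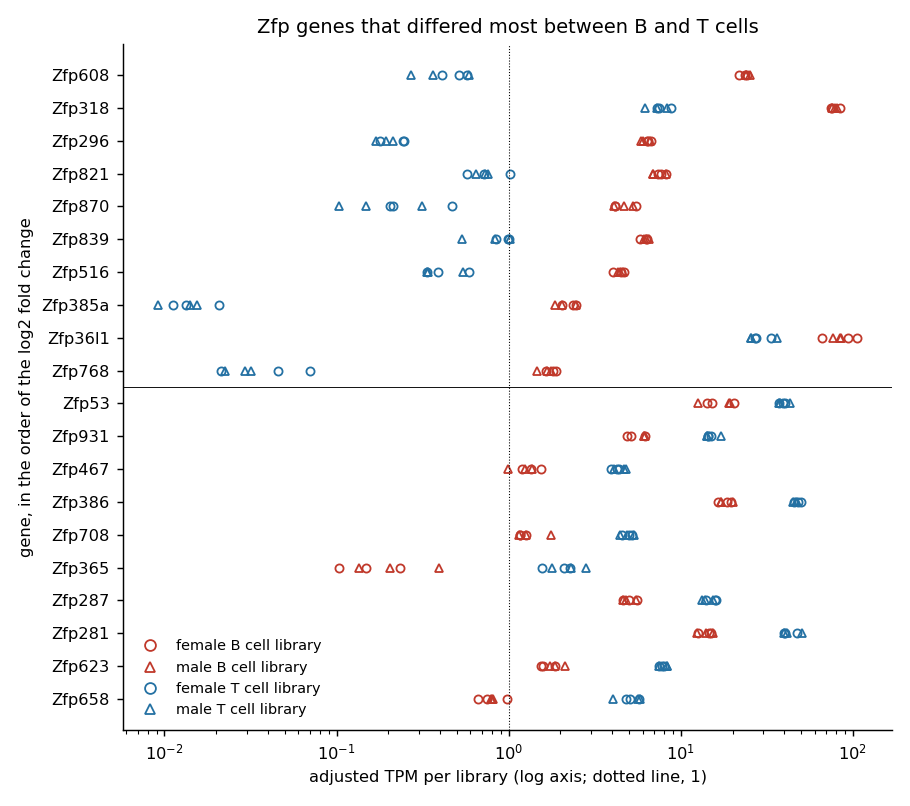
Adjusted TPM per library (log axis) of the 10 Zfp genes with the largest log2 fold change in each direction among those called and without overlap, B cells in red, T cells in blue, females as circles and males as triangles. In every row the 6 B and the 6 T cell libraries are apart.

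Among the 4 genes that matched the CCCH pattern, Zfp36 and Zfp36l2 had the largest spread between libraries of all members. Zfp36, tristetraprolin (chr7:28376784-28380253, minus strand), measured 194, 132 and 79.1 in female B cells and 149, 128 and 80.5 in male B cells. In female T cells it measured 66.1, 60.4 and 48.8, and in male T cells 65.7, 61.8 and 48.0. Every B cell library was above every T cell library (log2 fold change 1.05 ± 0.20 (SE), adjusted p = 0.00050), although the B cell libraries spread widely. Zfp36l1, which takes part in lymphocyte development and quiescence (chr12:80107754-80113013, minus strand), ran from 66.0 to 106 in B cells, against 25.5 to 36.1 in T cells (log2 difference 1.52 ± 0.12 (SE), adjusted p = 1.2e-07).

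Without both T cell libraries numbered 6 these differences were 0.92 for Zfp36 (adjusted p = 0.0056) and 1.65 for Zfp36l1 (adjusted p = 4.6e-07). Zfp330 was steady, at 17.3 to 21.1 in B cells, against 21.8 to 26.6 in T cells (log2 difference -0.30 ± 0.07 (SE), adjusted p = 0.0011), with an SD within groups of 0.11 on the log2 scale. It was named after its values were seen. Zfp330 was placed beside the Zfp36 genes by the pattern match alone, and whether it binds RNA was not examined. With equal totals the median of all genes moved further than its difference, from -0.09 to 0.25, so its call may rest on the scaling.

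Zfp36l2 overlapped between the cell types. It measured 137, 47.7 and 162 in female B cells, 143, 200 and 46.8 in male B cells, 95.5, 84.1 and 150 in female T cells and 110, 88.0 and 184 in male T cells. A pair of B cell libraries, female 2 and male 3, stood far below the others, and no difference was called (log2 fold change -0.10 ± 0.38 (SE), adjusted p = 0.82). Without both T cell libraries numbered 6 the value was 0.17 (adjusted p = 0.73). Its SD within groups on the log2 scale was 0.80, the largest of all members, beside 0.43 for Zfp36 and a median of 0.12 for the members and 0.13 for all genes. The following places belonged to Zfp692 (0.35), the pseudogene Zfp125 (0.32, called between the cell types without female B cell library 1) and Zfp119a (0.28). Zfp692 was lowest in the male B cell library 1 (4.56) and the male T cell library 4 (5.03).

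Immediate early genes, which are induced within minutes of stimulation, as Zfp36 is, also varied between libraries. The summed adjusted TPM of 7 of them (Fos, Fosb, Jun, Junb, Egr1, Ier2 and Dusp1) ran from 161 to 570 in B cells, against 279 to 831 in T cells, with 3 of the 7 called higher in T cells, 0 in B cells and 4 not called. In T cells the libraries numbered 6 had the lowest sums, 334 and 279, together with the lowest Zfp36 and the highest Zfp36l1 and Zfp36l2, and these are the libraries with the raised Il2ra and Foxp3 given above. The T cell libraries numbered 4 had the highest sums, 739 and 831. In B cells the highest sum and the highest Zfp36 fell in female library 1 (570 and 194), and the sums of the cell types overlapped. The part of these genes, and of Il2ra and Foxp3, in the Zfp36 results was not tested.

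**Figure D4:**
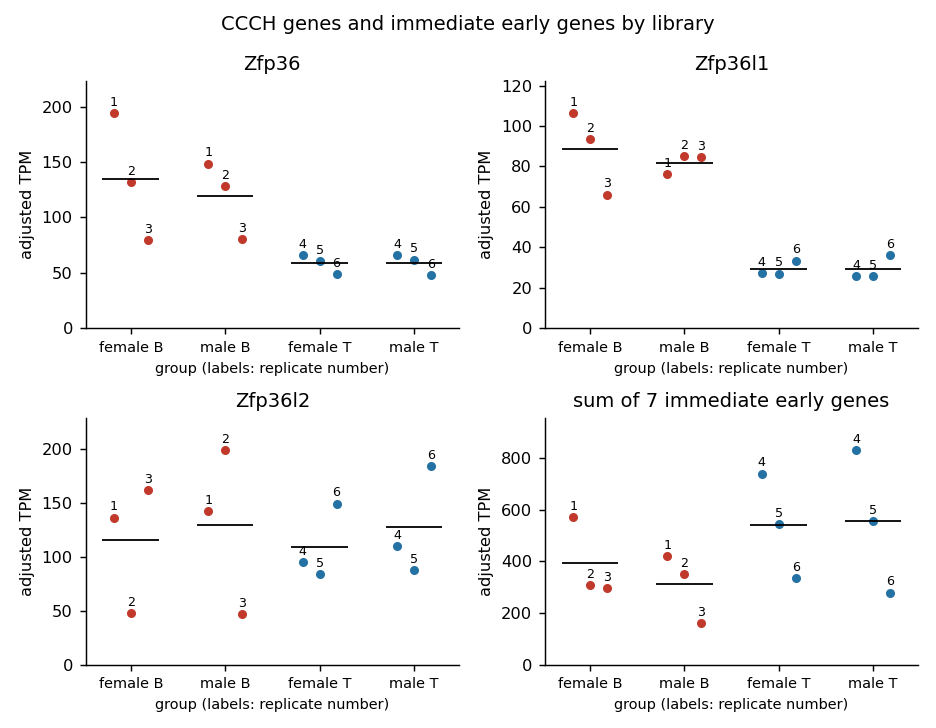
Adjusted TPM of Zfp36, Zfp36l1, Zfp36l2 and the sum of 7 immediate early genes in each library, by group, with the replicate number beside each point and the group mean as a line. Zfp36 and Zfp36l1 are higher in all B cell libraries, Zfp36l2 overlaps between the cell types, and the T cell libraries numbered 6 (334 and 279) have the lowest sums of their groups.

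The KRAB genes were called in a share close to that of the other members. Of the 94 with the core pattern 59 were called (62.8%), 24 higher in B and 35 in T cells, and of the 189 without it 119 were called (63.0%), 54 and 65, where 73% of all genes were (31.4% towards B cells, 41.6% towards T cells). Their median log2 fold changes were -0.06 and -0.05. With a looser pattern that matched 148 genes, 91 were called, 33 towards B cells and 58 towards T cells, which is 61.5%. Of the 135 without the looser match 87 were called (64.4%), 45 towards B cells and 42 towards T cells. The median log2 fold changes were then -0.11 and -0.02, so how the directions of KRAB genes and others compared depended on the pattern. Under equal totals the split of the 94 turned to 36 and 6, or 38.3% and 6.38%, beside 38.4% and 15.9% of all genes. Without both T cell libraries numbered 6 it was 30 and 30. None of the 94 KRAB genes had a mean level of 50 or more, and the highest reached 38.1, while 7 of the others did.

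Known repressors of retroelements and imprinted genes were among the members, and of the 5 on the list of roles Zfp568 and Zfp708 (given above) were called and Zfp445, Zfp809 and Zfp932 were not. Zfp445, which maintains imprints, ran from 30.7 to 35.6 in B cells, against 27.3 to 38.3 in T cells (log2 difference 0.03 ± 0.08 (SE), adjusted p = 0.73). Zfp809, which silences proviruses with a proline primer binding site, ran from 9.58 to 14.9 and from 7.61 to 11.5 (0.23 ± 0.11, adjusted p = 0.070), and Zfp932 had medians of 20.2 and 17.9 (0.09 ± 0.11, adjusted p = 0.49). Zfp809 was called under both other scalings, and also without female B cell library 1 (0.28), male B cell library 3 (0.29) or male T cell library 6 (0.28). Of Zfp932, 86.9% of the coding sequence is shared with another gene. Without both T cell libraries numbered 6, Zfp932 was called (0.23, adjusted p = 0.027). Zfp568, a repressor of a placental Igf2 transcript, was higher in B cells, with medians of 6.90 and 5.23 (0.39 ± 0.08, adjusted p = 0.00054). Zfp619, a KRAB gene with 33 fingers that the study names beside an IAP (chr7:39517766-39540420, plus strand), ran from 3.25 to 3.77 in B cells, against 1.18 to 2.13 in T cells. Its cell types did not overlap (0.87 ± 0.09, adjusted p = 2.6e-06). Zfp820, the other gene so named, did not reach the rule, with means of 0.054 in B cells, against 0.387 in T cells.

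The partners through which KRAB proteins act were all expressed. Of 13 corepressor and silencing genes 5 were called higher in B cells (31.4% of all genes were), 3 higher in T cells (41.6% of all genes were) and 5 not at all. Trim28, the corepressor that binds the KRAB box, had 80.0 ± 5.27 (SD, n = 6) in B cells, against 90.8 ± 6.70 in T cells. The difference on the log2 scale was -0.18 ± 0.06 (SE) with a limma adjusted p of 0.023. With equal totals the median of all genes moved further than this, from -0.09 to 0.25, so the call of Trim28 may rest on the scaling. Setdb1, the methyltransferase that TRIM28 recruits, had 18.7 ± 1.18 and 20.2 ± 0.76 and was not called. The widest differences were those of Uhrf1, a partner of the maintenance DNA methyltransferase, with 8.61 ± 1.86 in B cells, against 1.05 ± 0.27 in T cells, and of the heterochromatin gene Cbx3, with 91.0 ± 9.17 and 162.8 ± 14.9. Uhrf1 is known to rise in dividing cells. The 4 cell cycle genes given above were also higher in B cells, and their part in the Uhrf1 difference was not tested.

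Other members with a known role were spread over both directions. Zfp106, an RNA-binding protein, ran from 47.0 to 53.0 in B cells, against 26.9 to 29.9 in T cells (log2 difference 0.83 ± 0.05 (SE), adjusted p = 6.9e-09). Zfp407 (0.47), Zfp831 (0.30), Zfp384 (0.25) and Zfp335, a gene needed for naive T cells (0.23), were also higher in B cells. Zfp609, a relative of Zfp608, was higher in T cells with medians of 3.59 and 4.69 (-0.34 ± 0.07, adjusted p = 0.0012), although under equal totals its difference was -0.04. Zfp143 (-0.26), Zfp292 (-0.23) and Zfp217 (-0.14) were called higher in T cells on the deposited values and were not called under either other scaling. Zfp91, Zfp131, Zfp148, Zfp410, Zfp451 and Zfp598 were not called, and their log2 fold changes lay between -0.15 and 0.15. Zfp131 was called without male T cell library 6 (0.23), and Zfp598 without male B cell library 2 (-0.19), female T cell library 6 (-0.17) or male T cell library 6 (-0.17). Zfp91, a ubiquitin ligase, was the most even of them, at 39.8 to 44.0 and 38.7 to 40.7.

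Zfp genes are known to lie in clusters that arose by duplication, and the members did so here. On chromosome 7 lay 73 members, or 25.3%, beside 7.15% of the genes tested, on chromosome 17 lay 37 and on chromosome 13 lay 31. Members within 250 kb of each other were joined into runs, which held 177 members, and 82 of the 94 KRAB genes (87.2%) against 92 of the 189 others (48.7%). There were 24 runs of 3 or more members. In 12 of these runs both directions were called, in 5 there were calls in B cells alone, in 6 in T cells alone, and in 1 there was none. With median-ratio scaling these numbers were 13, 7, 4 and 0, and with equal totals 7, 13, 0 and 4, so the split of the runs rests on the scaling. Genes of a run share sequence and a chromosomal neighbourhood and are not independent.

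The sharpest change of direction lay in a run of 10 members on chromosome 17 (chr17:21383748-22071168), all 10 of which were called. The first 4 in chromosomal order, Zfp677, Zfp54, Zfp51 and Zfp53, were higher in T cells, with log2 fold changes of -0.89, -0.72, -0.78 and -1.19. The following 4, Zfp52, Zfp948, Zfp760 and Zfp229, were higher in B cells, with 1.21, 0.87, 1.09 and 1.36. The last pair, the divergently transcribed Zfp942 and Zfp943, had -0.33 and 0.45. Zfp53 ran from 12.6 to 20.5 in B cells, against 37.0 to 42.9 in T cells, and its neighbour Zfp52 from 14.8 to 18.2 and from 5.71 to 8.94. Both were thus at about 17 in B cells and lay apart in T cells. The libraries of the cell types did not overlap in any of these 8 genes, Zfp948 and Zfp229 having passed the rule through B cells alone. Under median-ratio scaling the 8 kept their calls. With equal totals 7 kept them, and Zfp51 was not called while its value stayed below 0. All 10 genes of the run kept call and direction without both T cell libraries numbered 6.

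**Figure D5:**
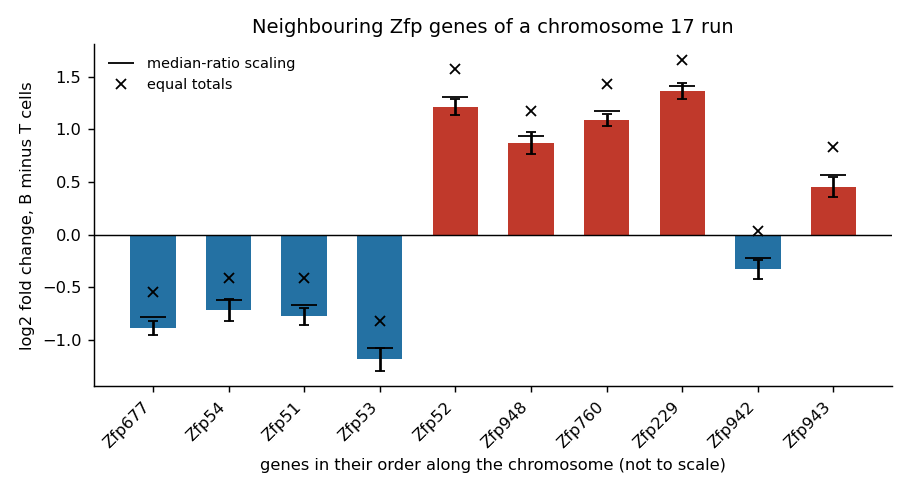
Log2 fold change between B and T cells (bars, with the SE from limma) of the 10 neighbouring Zfp genes of the chromosome 17 run, in chromosomal order, with the values under 2 other scalings as dashes and crosses. The first 4 bars point to T cells and the following 4 to B cells, between -1.19 and 1.36, and the marks of the other scalings stay on the same side for these 8.

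The sequences before the start sites of Zfp53 and Zfp52, where the run changes direction, are shown for comparison (RefSeq start sites, GRCm38.p6, 250 bases each, plus strand, chr17:21488738-21488987 and chr17:21535289-21535538). Capitals mark matches on either strand to any of 6 motifs, namely the GC box GGGCGG, the CCAAT box, the TATA box TATAAA, the ETS motif CCGGAAG, the CRE motif TGACGTCA and the AP-1 motif TGANTCA.
Zfp53: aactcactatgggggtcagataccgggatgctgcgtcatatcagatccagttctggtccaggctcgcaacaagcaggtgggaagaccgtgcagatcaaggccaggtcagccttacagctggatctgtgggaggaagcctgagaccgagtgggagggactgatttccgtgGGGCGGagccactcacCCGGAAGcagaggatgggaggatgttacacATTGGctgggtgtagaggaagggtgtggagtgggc
Zfp52: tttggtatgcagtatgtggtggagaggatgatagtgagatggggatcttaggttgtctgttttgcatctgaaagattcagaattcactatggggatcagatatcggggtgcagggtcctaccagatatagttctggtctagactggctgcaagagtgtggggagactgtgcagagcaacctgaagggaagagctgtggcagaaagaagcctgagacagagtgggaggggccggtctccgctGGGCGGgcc
A local alignment of the windows covered 164 bases at 78.0% identity. The Zfp53 window held 1 GC box, 1 CCAAT box and 1 ETS match, and the Zfp52 window held 1 GC box and none of the other motifs. Over 32851 windows of the same length before RefSeq start sites, 32.7% held a GC box, 33.8% a CCAAT box and 6.91% the ETS motif. Of the 292 windows of 241 members found in that table, 43.5% held a GC box, 46.6% a CCAAT box and 17.1% the ETS motif. In the 90 windows of members with a KRAB match these shares were 34.4%, 45.6% and 23.3%. Member windows had a median of 12 CG pairs, against 6 in all windows. The GC box and the ETS motif each contain CG, and the part of base composition was not tested. These shares describe letters in a window and not binding.

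In other runs the directions were mixed or depended on the scaling. The 20 members on chromosome 13 (chr13:67038596-67827002), the largest run, held 6 genes higher in B cells, 6 higher in T cells and 8 not called, which became 10, 3 and 7 with median-ratio scaling and 10, 2 and 8 with equal totals. A run of 12 on chromosome 17 (chr17:32765496-33631779) held Zfp870, which passed the rule through B cells alone, beside Zfp955a and Zfp955b, which were higher in T cells with -1.01 and -0.97 and were so called under the 3 scalings. Zfp955a and Zfp955b are 98.2% identical in their coding sequence, so their reads could have been divided between them, and the values of one are not independent of the other. Of 6 KRAB genes at chr7:27731389-28014115, 0 were called towards B cells and 4 towards T cells, with log2 fold changes between -0.47 and -0.05. The 4 calls fell to 2 with median-ratio scaling and to 0 with equal totals, where 4 of the 6 values were above 0. All 3 members at chr17:22337989-22456689 were higher in B cells, with values between 0.31 and 0.56, and were called so under the 3 scalings.

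The sex comparisons ask whether any Zfp gene differs between females and males within a cell type. By limma 0 of the 288 members passed the threshold in B cells, in T cells or in the difference between these effects, where 0.144%, 0.104% and 0% of all genes tested did. At an unadjusted p under 0.05 there were 1, 3 and 1 members, beside 2.98%, 2.55% and 2.36% of all genes. The 3 female and 3 male libraries did not overlap for 14 members of the B cell comparison and 18 of the T cell comparison, or 4.86% and 6.25%, against 7.2% and 8.49% of all genes. No member had groups without overlap in opposite directions in the B and T cells. The 4 members on the X chromosome, Zfp182, Zfp275, Zfp280c and Zfp300, were not among the called genes either.

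The smallest p in B cells was that of Zfp760, with 4.80, 5.28 and 5.80 in females and 6.19, 6.59 and 6.94 in males. The difference of females minus males was -0.27 ± 0.08 (SE) on the log2 scale, with an adjusted p of 0.91 by limma. In T cells it was that of Zfp213, with 6.69, 6.38 and 5.91 in females and 7.94, 6.85 and 7.97 in males (-0.23 ± 0.09, adjusted p = 1.0). Zfp52 had 6.81, 6.88 and 8.94 in females and 5.80, 5.71 and 6.91 in males (0.25 ± 0.11, adjusted p = 1.0), which overlap. Zfp93 had 1.40, 1.35 and 1.40 in females and 1.56, 1.73 and 1.83 in males (-0.18 ± 0.08, adjusted p = 1.0). After Zfp760 the smallest p-values in B cells were those of Zfp382 and the antisense gene Zfp335os, and for the difference between the sex effects those of Zfp760, Zfp335os and Zfp414.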

How the data were processed

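RNA of each library was freed of ribosomal RNA and made into stranded libraries by the authors. The submitters' processing notes name Trim Galore, FastQC, STAR and the build mm10. The deposited signal is adjusted TPM with lower and upper bounds, and neither the adjustment nor the level of the bounds is given in the sources used here. These are not counts, so the depth is unknown. No deposited column was left unused. Here, limma 3.58.1 (R 4.3.3) was fitted with a trend to log2(adjusted TPM + 1) of the 12520 genes at 1 or more in at least 3 of 12 libraries, with 1 coefficient for each of 4 groups, and p-values were adjusted over all of them (Benjamini-Hochberg, threshold 0.05). The fit was tested on simulated data. Gene positions, types and coding sequences came from GENCODE M21. The KRAB core was searched in the first 400 residues. Shared sequence was found with blastn 2.17.0+ (at least 95% identity over 200 bases). Python 3.11.15, pandas 2.3.3, numpy 2.4.6, Biopython 1.88 and matplotlib 3.10.9 were used. The named genes are the 10 largest differences in each direction among called genes without overlap, the 5 highest levels, the 3 smallest p-values of each sex contrast, the 5 largest SDs, a list by role, and the genes nearest the rule. Genes of the runs were named after their values were seen. Members and lists were chosen with earlier results of these data known. The replicate numbers in the labels are shared by the sexes within a cell type. Deviations of same-numbered libraries from their group means correlated across genes with r of 0.72, 0.55 and 0.52 in T cells. In B cells r was -0.17, -0.04 and -0.34. Same-numbered T cell libraries thus varied together, and same-numbered B cell libraries did not. Some B cell libraries with different numbers varied together, with r of 0.39 for female 3 and male 1 and 0.30 for female 2 and male 3. Whether the numbers mark pairs is not stated in the labels. The alternatives tried were other scalings, pseudocounts, filters and fits, a replicate block, and leaving out each library or both T cell libraries numbered 6.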

Additional observations from a re-analysis of the deposited data

How the results depend on the processing

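The 181 Zfp genes called between B and T cells ranged from 171 to 191 when each library was left out, and the 59 KRAB genes from 53 to 62. No called member turned direction with a call in any fit. A minimum log2 fold change of 1 left 30 of 288 members and 7 of 94 KRAB genes, where it left 21.6% of all genes tested. The looser KRAB pattern raised the called KRAB genes to 91 of 148. The median log2 fold change of the members, between -0.06 and -0.04 without single libraries, moved to 0.049 with median-ratio scaling and 0.28 with equal totals. Their median SD within groups, 0.12, was between 0.11 and 0.13 without single libraries, 0.15 with a pseudocount of 0.1 and 0.28 with equal totals. Of the genes named by the rule 38 of 55 were called, and 38 to 42 without single libraries. In the main fit 73% of all genes tested were called. The 10 largest differences in each direction were taken from called genes, so their calls were fixed in advance. With equal totals Zfp143, Zfp292 and Zfp217 turned to 0.10, 0.14 and 0.23. In the sex comparisons 0 members were called in each fit that leaves out a library. With no filter on low values 1 was called in B cells (Zfp760), 2 in T cells (Zfp93 and Zfp213) and 2 in the difference between the sex effects (Zfp760 and Zfp93); the cause was not tested. With the replicate block 0 members were called in each of the 3 sex comparisons, and no call changed. The block follows the numbers in the labels, so it does not cover B cell libraries that varied together under different numbers. The comparison of B with T cells could not be blocked, since no number occurs in both. Averaging the same-numbered T cell libraries, chosen after seeing the data, left 165 members called, all among the 181. Leaving out both T cell libraries numbered 6, also chosen after seeing the data, gave 191 members (168 of the 181 and 23 others), 60 KRAB genes, 44 named genes and 0 in each sex comparison, and brought in calls of Zfp125, Zfp131, Zfp207, Zfp598, Zfp809 and Zfp932. Leaving out genes with shared sequence, also chosen after seeing the data, left 149 of 235 called (63.4%, against 73% of all genes tested). Depth is unknown, and levels under 1 are imprecise.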
